A study of Homo sapiens with 6 samples.

Results

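HSPA6, HSPA1A and HSPA1B encode the stress-inducible members of the HSP70 family of chaperones, and their probes are described here in the human ovarian cancer cell line HeyA8 after magnetic fluid hyperthermia (MFH), which heats cells through magnetic nanoparticles placed in an alternating field. Total RNA of HeyA8, from 3 samples left untreated and 3 given MFH, was labelled with biotin and hybridised to 1 Illumina bead array each. The labels call both groups parental cells and give no temperature, duration, harvest time, nanoparticle control or field control, so treatment and handling cannot be told apart. Nothing in them tells separate cultures from repeat preparations of 1 culture, so the p-values rest on a spread between samples that may be technical. The members are 3 of 47231 probes, namely ILMN_1806165, ILMN_1789074 and ILMN_1660436, selected on their change in intensity between these same 6 arrays. Their changes are therefore descriptions, and no test is given for them. In bulk RNA, more cells with a transcript and more transcript per cell cannot be told apart. The names came from the platform annotation deposited with GEO, which gives 1 gene to 30113 probes, several to 8 and none to 17110. It assigns ILMN_1806165 to HSPA6 and ILMN_1789074 to HSPA1A. The remaining probe, ILMN_1660436, had been picked as a probe of HSPA1A, but the annotation assigns it to HSPA1B, and it is called the HSPA1B probe here. The members thus stand for 3 of 20046 annotated genes.

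HSP70 chaperones bind unfolded stretches of proteins and release them in a cycle driven by ATP. HSP40 proteins, the DNAJ family, deliver clients and speed ATP hydrolysis, and exchange factors such as the BAG proteins and the HSP110 relatives reset the cycle. When proteins unfold in heat, heat shock factor HSF1 is freed from chaperones, forms trimers and binds heat shock elements, which are inverted repeats of the bases GAA, upstream of its target genes. HSPA8 is the constitutive cytosolic member, HSPA1A and HSPA1B are neighbouring genes that encode the same protein, and HSPA6 is a strictly inducible member that rodents lack. HSPA7 is a transcribed pseudogene closely related to HSPA6, and a probe designed for either could bind transcripts of both. The same holds for HSPA1A and HSPA1B, whose transcripts are alike over the coding region. The probes' own sequences were not used here, so such cross-binding was not tested.

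The upstream sequences of the 3 genes are shown because their matches to the heat shock element differ in number and layout. HSPA8, the constitutive relative, is shown beside them. Each run is the 250 bases before the gene's start in RefSeq on GRCh38.p14, read 5′ to 3′ on the gene's strand, and capitals mark GAANNTTC or TTCNNGAA, both of which read the same on either strand. HSPA6 lies at chr1:161524290-161524539 on the plus strand, HSPA1A at chr6:31815293-31815542 on the plus strand, HSPA1B at chr6:31827488-31827737 on the plus strand and HSPA8 at chr11:123062137-123062386 on the minus strand.
HSPA6: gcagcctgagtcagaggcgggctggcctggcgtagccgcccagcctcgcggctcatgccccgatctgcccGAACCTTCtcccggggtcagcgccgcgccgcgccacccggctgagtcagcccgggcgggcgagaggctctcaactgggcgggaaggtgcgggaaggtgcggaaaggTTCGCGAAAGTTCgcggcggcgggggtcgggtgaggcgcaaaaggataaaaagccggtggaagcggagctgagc
HSPA1A: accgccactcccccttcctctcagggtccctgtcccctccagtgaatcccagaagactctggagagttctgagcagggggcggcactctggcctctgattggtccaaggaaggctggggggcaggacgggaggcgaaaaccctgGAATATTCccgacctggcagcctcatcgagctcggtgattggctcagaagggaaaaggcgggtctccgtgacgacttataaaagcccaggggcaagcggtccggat
HSPA1B: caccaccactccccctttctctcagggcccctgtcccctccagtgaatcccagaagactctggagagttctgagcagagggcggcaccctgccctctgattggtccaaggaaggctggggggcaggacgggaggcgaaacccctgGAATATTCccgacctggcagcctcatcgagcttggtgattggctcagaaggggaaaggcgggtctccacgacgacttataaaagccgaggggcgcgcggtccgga
HSPA8: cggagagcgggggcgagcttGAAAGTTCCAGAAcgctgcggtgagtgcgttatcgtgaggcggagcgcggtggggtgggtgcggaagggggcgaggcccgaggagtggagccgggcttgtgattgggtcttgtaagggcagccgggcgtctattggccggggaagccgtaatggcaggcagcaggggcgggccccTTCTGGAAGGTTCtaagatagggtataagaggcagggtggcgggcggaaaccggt

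The HSPA6 window held 3 matches, of which 2 overlap and form the longer TTCNNGAANNTTC from -74 to -62, counted from the first base of the gene at 0. Its remaining match lay from -180 to -173. HSPA1A held 1 match, from -106 to -99, and HSPA1B held 1 match, from -105 to -98, with the same letters. In HSPA8, 4 matches formed 2 longer runs, from -230 to -218 and from -55 to -43. GAANNTTC was present in 5.85% and TTCNNGAA in 6.72% of 27305 RefSeq windows of the same length, and 11.7% held at least 1 of them. The longer run, GAANNTTCNNGAA or its reverse complement, was present in 0.439%. The windows of HSPA1A and HSPA1B held TATAAA, while those of HSPA6 and HSPA8 did not. CCAAT stood at 2 places each in HSPA1A, HSPA1B and HSPA8 and at none in HSPA6, on either strand. TATAAA was present in 11.1% of windows and CCAAT in 33.0%. The HSPA1A and HSPA1B windows were identical at 235 of 251 aligned columns (93.6%), and the HSPA6 window shared 46.2% of columns with HSPA1A. These matches are descriptions of letters, not of bound sites.

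**Figure D1:**
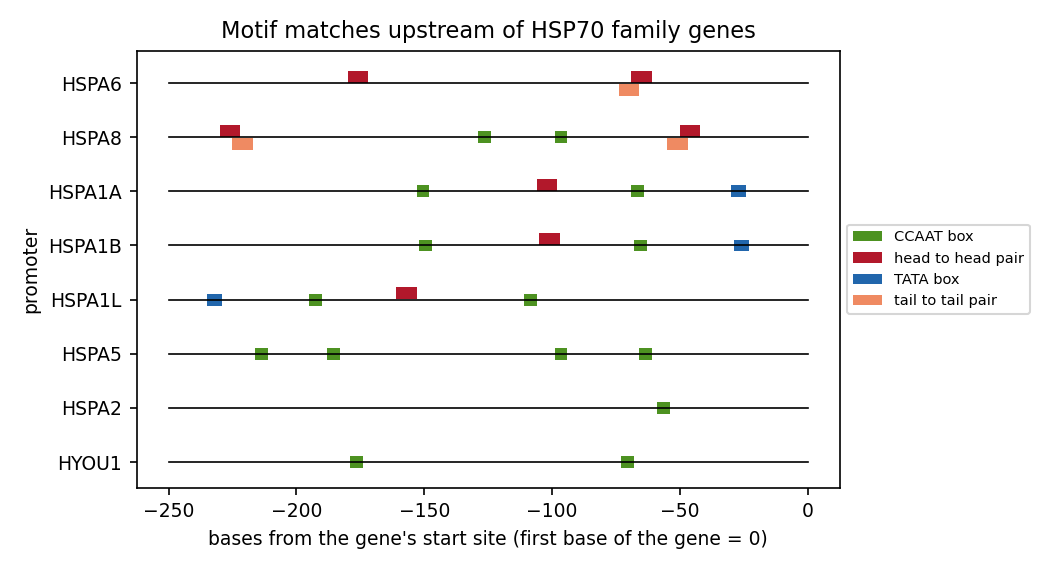
Positions of motif matches in the 250 bases upstream of HSP70 family genes, in bases from the gene's first base. Bars mark GAANNTTC (head to head pair), TTCNNGAA (tail to tail pair), TATAAA and CCAAT; HSPA6 and HSPA8 hold overlapping pairs, HSPA1A, HSPA1B and HSPA1L 1 pair each, and HSPA5, HSPA2 and HYOU1 no pair.

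HSPA6 went from a weak signal in untreated cells to one of the brightest on the array after MFH. Its raw bead intensity was 346, 311 and 365 on untreated arrays 1, 2 and 3, and 22277, 18139 and 14131 on MFH arrays 1, 2 and 3. The groups did not overlap, as in 12.8% of tested probes for this direction, and MFH array 3 was the lowest of its group. The untreated signal was not at background: it was 3.31 to 3.58 times the background mode of its array, which lay between 93.4 and 115 in raw units, and above the limit of background on all 3 arrays. Counted from the brightest probe, HSPA6 ranked 9345, 8571 and 8752 on the untreated arrays and 14, 111 and 411 on the MFH arrays. After normalization the log2 level averaged 8.27 ± 0.12 on untreated and 14.08 ± 0.34 on MFH arrays (SD, n = 3 each). The change was 5.81 ± 0.21 (SE) on the log2 scale, or 56.0-fold, and it was the largest of the 23615 tested probes. Against the untreated mean, the single MFH arrays were 67.9-fold, 60.3-fold and 42.9-fold higher. The scale left a log2 distance of 6.19 between the untreated level and the brightest normalised value, 14.46, not far above the change itself.

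A further HSPA6 probe and the HSPA7 probe gave the same picture at lower intensities. ILMN_1658383, also annotated to HSPA6 and not among the members, read 154, 126 and 173 on the untreated arrays and 5294, 3570 and 3559 on the MFH arrays. Its log2 change of 5.04 ± 0.13 (SE) was 32.8-fold, smaller than that of the member probe by 0.77 ± 0.16 (SE) on the log2 scale. The untreated signal of this probe was only 1.34 to 1.69 times the background mode, and the processing lowers the folds of dim probes. The HSPA7 probe, ILMN_3235964, read 231, 185 and 208 before and 13496, 9644 and 8274 after treatment. The 54.6-fold difference was 5.77 ± 0.12 (SE) on the log2 scale. That differed from the change of HSPA6 by 0.038 ± 0.11 (SE). The sizes moved with the processing. In the authors' processed matrix the log2 changes were 5.50 for the HSPA6 member probe, 4.46 for the other HSPA6 probe and 5.22 for HSPA7. On raw intensities all 3 probes were highest on MFH array 1 and lowest on MFH array 3. Transcripts of HSPA6 and HSPA7 cannot be told apart with these values, so no test is given for the HSPA7 probe.

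**Figure D2:**
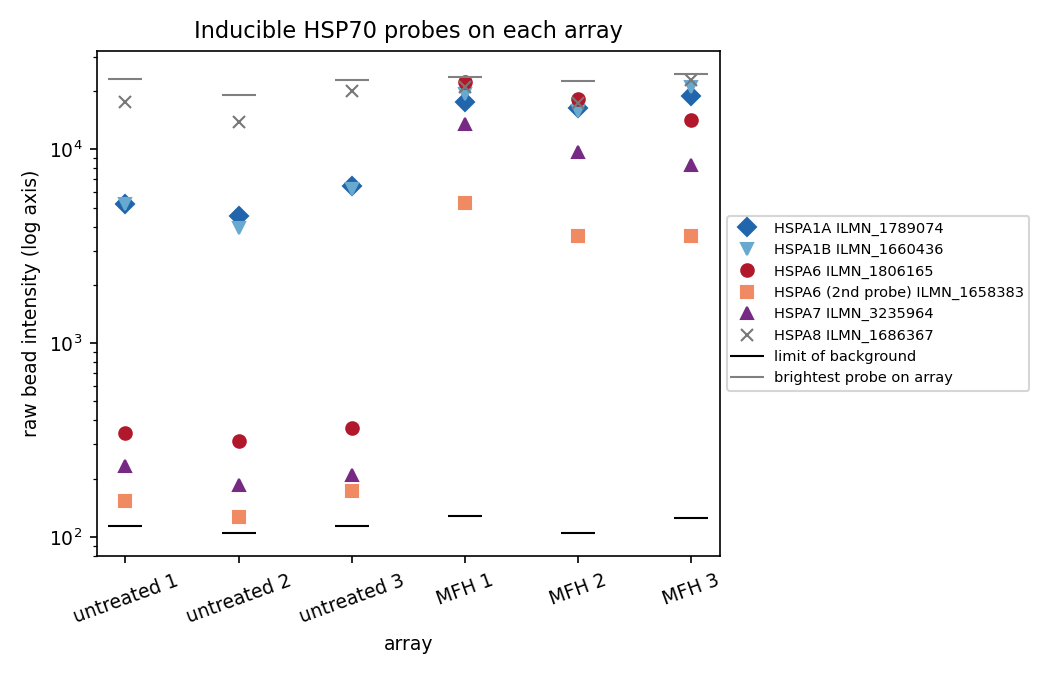
Raw bead intensity (log axis) of the HSP70 probes on each of the 6 arrays, with the limit of background and the brightest probe of each array as horizontal marks. HSPA6 read 311 to 365 untreated and 14131 to 22277 after MFH, and HSPA1A 4514 to 6467 and 16387 to 18948, while HSPA8 was near the brightest probe on every array.

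HSPA1A and HSPA1B gave strong signals before treatment and were 2.98-fold and 3.35-fold higher after MFH. The HSPA1A probe read 5251, 4514 and 6467 on untreated arrays 1, 2 and 3 and 17531, 16387 and 18948 on the MFH arrays. The HSPA1B probe read 5254, 3913 and 6234 on the untreated arrays and 19259, 15731 and 20973 on the MFH arrays. In both cases every MFH array was above every untreated array. On raw intensities array 2 was the lowest of either group and array 3 the highest. After normalization that order held for HSPA1B but not for HSPA1A. Normalised HSPA1A was 12.26, 12.42 and 12.64 on untreated arrays 1, 2 and 3 and 13.92, 14.08 and 14.04 on the MFH arrays. The untreated signals were 48.0 to 63.4 times the background mode for HSPA1A and 41.6 to 61.1 times for HSPA1B. The HSPA1A difference was 2.98-fold, or 1.58 ± 0.12 (SE) in log2, from a level of 12.44 ± 0.19 (SD, n = 3) to 14.01 ± 0.085 (SD, n = 3). The HSPA1B difference was 3.35-fold, or 1.74 ± 0.12 (SE) in log2, from 12.36 ± 0.19 (SD, n = 3) to 14.11 ± 0.081 (SD, n = 3). By size of change they ranked 64 and 46 among the 23615 tested probes.

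The changes of the HSPA1A and HSPA1B probes were close. The log2 difference between them, HSPA1A minus HSPA1B, was -0.0018, 0.18 and 0.052 on the untreated arrays and -0.19, 0.056 and -0.14 on the MFH arrays, so the ranges overlapped. The change of HSPA1A was smaller by 0.17 ± 0.093 (SE) on the log2 scale, a ratio of folds of 0.889. Since either transcript may bind either probe, the values cannot be read as separate responses of the pair of genes.

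HSPA6 and the HSPA1 pair differed both in starting signal and in size of change. The log2 change of HSPA6 exceeded that of HSPA1A by 4.23 ± 0.24 (SE) and that of HSPA1B by 4.06 ± 0.26 (SE), ratios of folds of 18.8 and 16.7. After MFH all 3 probes were near the top of the scale, reading 57.5% to 94.4% of the array's brightest value for HSPA6, 72.4% to 77.1% for HSPA1A and 69.5% to 85.3% for HSPA1B. Signals of different probes are not levels of transcript on a common scale, so their order after treatment is not read here. The room above the starting level also differed: the brightest normalised value lay 2.02 above untreated HSPA1A and 2.10 above untreated HSPA1B on the log2 scale. Of the 948 tested probes that started at or above HSPA1A, the largest change was 1.72. Whether the scanner or the beads limited these signals was not tested, since the table gives no saturation flags.

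The spread between replicates was wider after MFH for the HSPA6 member probe and narrower for HSPA1A and HSPA1B. The coefficient of variation of the raw HSPA6 signal was 8.05% on untreated and 22.4% on MFH arrays. For HSPA1A it was 18.2% and 7.28%, and for HSPA1B 22.7% and 14.3%. The other HSPA6 probe gave 15.5% and 24.1%, but its normalised log2 SD was 0.17 untreated and 0.14 after MFH. Other relatives went either way. The normalised SD narrowed for HSPH1, from 0.25 to 0.093, and widened for HSPA1L, from 0.13 to 0.59. On raw intensities MFH array 3 was the lowest of its group for HSPA6, at 14131, and the highest for HSPA1A, at 18948, and for HSPA1B, at 20973. After normalization it was still the lowest for HSPA6 and the highest for HSPA1B. Normalised HSPA1A was highest on MFH array 2, at 14.08 against 14.04 on MFH array 3. All spreads here are of 3 values and were not tested.

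**Figure D3:**
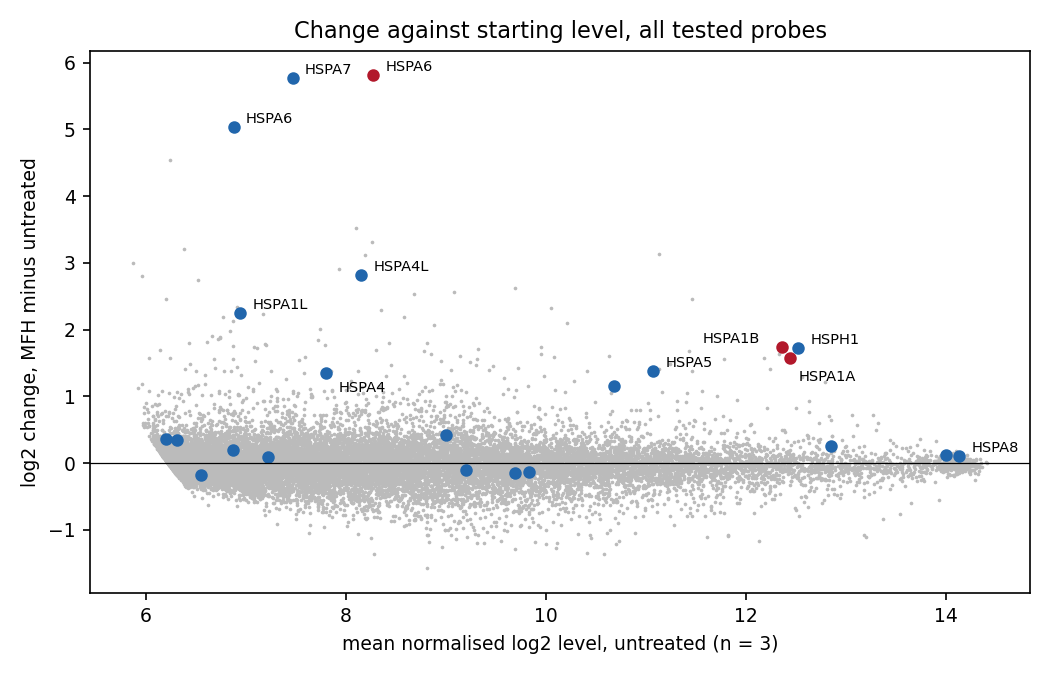
Log2 change (MFH minus untreated) against the mean normalised log2 level of the untreated arrays for the 23615 tested probes in grey, with member probes in red and other HSP70 family probes in blue. HSPA6 starts at 8.27 and changes by 5.81, HSPA1A and HSPA1B start at 12.44 and 12.36 and change by 1.58 and 1.74, and changes narrow towards the right-hand end of the scale, where HSPA8 lies.

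Among the other HSP70 relatives, 7 of 13 tested genes were higher after MFH and 0 were lower. The 7 include HSPA7, whose probe may bind HSPA6 transcripts, so its rise is not read as separate from that of HSPA6. In the same limma fit (adjusted p under 0.05), 12.3% of the 23615 tested probes were called, 5.7% higher and 6.58% lower. At an unadjusted p under 0.05 the count of lower relatives was also 0. HSPA1L, a testis-enriched gene that starts 260 bases from HSPA1A and runs the other way, read 152, 147 and 161 on untreated arrays and 1184, 472 and 457 on MFH arrays. All MFH values were above the untreated ones, and MFH array 1 stood above both others. The 4.74-fold difference was 2.24 ± 0.21 (limma's SE) on the log2 scale (limma adjusted p = 7.7e-06). The SE of the group means was wider, at 0.35, and leaving out 1 array gave changes of 1.90 to 2.50. HSPA1L and HSPA1A share 241 bases of their upstream windows, and the single GAANNTTC of the HSPA1A window, at chr6:31815437-31815444, is also the single match of the HSPA1L window.

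HSPA8, the constitutive HSC70, read 17576, 13912 and 19947 on untreated and 20901, 17348 and 22712 on MFH arrays, and the groups overlapped. Its log2 change was 0.11 ± 0.10 (SE; limma adjusted p = 0.59), and the other HSPA8 probe gave 0.13 ± 0.10 (SE; limma adjusted p = 0.50). The HSPA8 probe started 0.33 below the brightest normalised value, and among the 153 tested probes that started at or above it the largest change was 0.13. Whether the top of the scale held these values together was not tested. HSPA2, the testis-enriched HSP70, was above background on 2 of 3 untreated arrays, and its log2 difference was 0.35 ± 0.13 (SE; limma adjusted p = 0.12). HSPA14, a ribosome-associated relative, gave a log2 difference of -0.15 ± 0.11 (SE; limma adjusted p = 0.47).

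Of the organelle HSP70s, 2 of 3 passed the threshold, both higher. HSPA5, the chaperone of the endoplasmic reticulum known as BiP, read 2224, 1691 and 2553 before and 8438, 4777 and 5152 after MFH, with every MFH array above the untreated ones. It rose 2.61-fold, or 1.38 ± 0.13 (SE) in log2 (limma adjusted p = 7.9e-06). HSPA9, the mitochondrial HSP70 mortalin, read 7941, 5957 and 7339 before and 11148, 8223 and 9212 after MFH, a normalised difference of 0.26 ± 0.095 in log2 (SE; limma adjusted p = 0.096). It passed the threshold without background correction (limma adjusted p = 0.041) and with cyclic loess (limma adjusted p = 0.039). HSPA13, a microsomal relative that lacks the client-binding domain, rose by 0.42 ± 0.12 (SE; limma adjusted p = 0.027) at its brightest probe, while its other probes gave 0.20 and 0.098 (limma adjusted p = 0.27 and 0.64). The HSPA13 call was lost in 6 of the alternative fits. The distant relative HSPA12A gave -0.18 ± 0.11 (SE; limma adjusted p = 0.36), and HSPA12B was under the limit of background on all 6 arrays and was not tested.

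Of the HSP110 and GRP170 group, which act as exchange factors for HSP70, 3 of 4 genes rose, and the median log2 change was 1.44. HSPA4L read 330, 286 and 335 on untreated and 2510, 1815 and 2059 on MFH arrays, and was 7.06-fold higher (2.82 ± 0.098 in log2, SE; limma adjusted p = 1.3e-10). HSPH1 read 5407, 5705 and 5706 before and 20932, 20092 and 20436 after, and was 3.30-fold higher (1.72 ± 0.12 in log2, SE; limma adjusted p = 6.9e-07). HSPA4 rose by 1.16 ± 0.10 (SE; limma adjusted p = 6.0e-06), and its dimmer probe by 1.35 ± 0.11 (SE; limma adjusted p = 2.0e-06). For these 3 genes every MFH array was above every untreated one. HYOU1, the partner of HSPA5 in the endoplasmic reticulum, gave a log2 difference of -0.14 ± 0.16 (SE; limma adjusted p = 0.69), with overlapping groups.

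**Figure D4:**
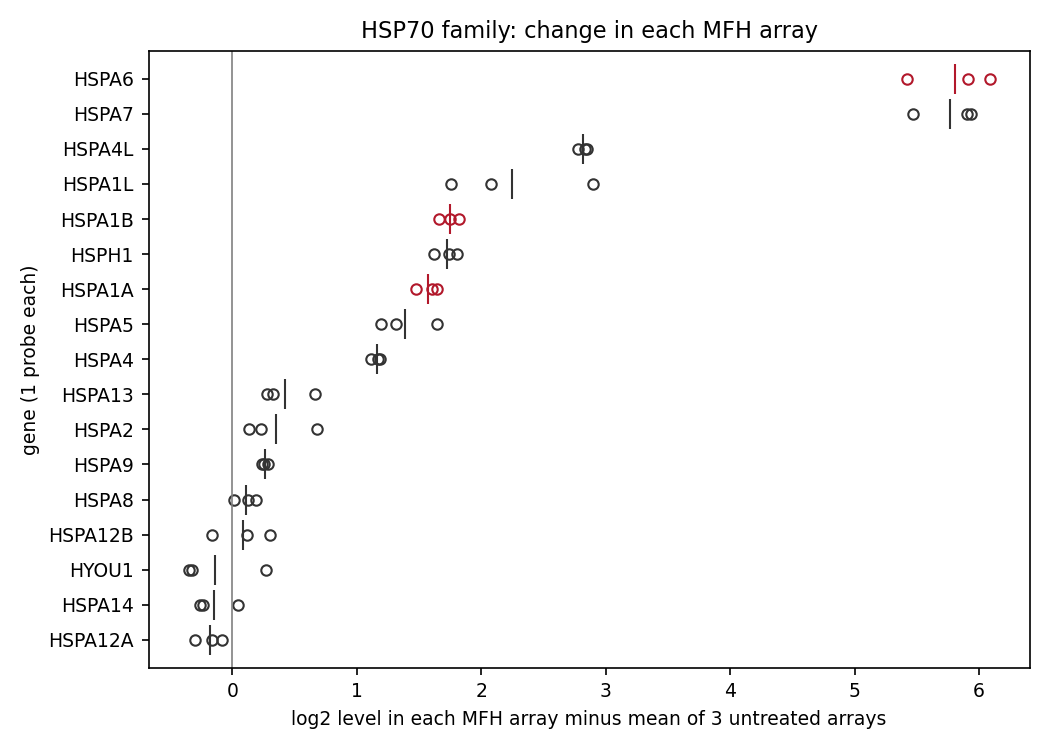
Normalised log2 level in each MFH array minus the mean of the 3 untreated arrays (open circles) and the mean change (vertical tick) for the brightest probe of each HSP70 family gene, members in red. HSPA6 and HSPA7 lie at 5.42 to 6.09, the HSPA1 pair at 1.48 to 1.82, and HSPA8 close to 0.

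The co-chaperones and other heat shock genes were read from 11 lists that were written with earlier results of these data known. Leaving out the 3 member genes, 38 of 73 tested genes were higher after MFH (52.1%) and 3 were lower (4.11%). Over all tested probes 5.7% were called higher and 6.58% lower, and the list counts below stand against these shares. The shares are over probes, while each list gene was read from 1 probe. The median log2 change of the 73 genes was 0.42 against -0.0087 for all tested probes. Of the 38 rises, 25 were at least 2-fold, where 0.788% of tested probes were called higher by as much. Groups did not overlap for 43 of the 73 in the higher and 6 in the lower direction, against 12.8% and 15.8% of tested probes. Among the genes that textbooks give as HSF1 targets, 22 of 25 were higher, with a median log2 change of 1.59, and 0 were lower, also at an unadjusted p under 0.05. The other 3, HSPA8, HSP90AA1 and HSPD1, gave log2 differences of 0.11 ± 0.10, 0.13 ± 0.10 and 0.18 ± 0.10 (SE) at their brightest probes. HSPD1, the mitochondrial chaperonin, was higher by 1.73 ± 0.16 and 1.41 ± 0.12 (SE) at dimmer probes (limma adjusted p = 7.9e-06 and 4.0e-06). It was chosen for mention after its values were seen. The counts of higher genes above, of textbook targets too, include HSPB8, which passed the filter on mean level only through its MFH values. That call is no support. The 38 also include HSPA7, whose probe may bind HSPA6 transcripts.

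HSP40 proteins, which bring clients to HSP70, were higher in 7 of 13 tested genes (53.8%) and lower in 1 (7.69%). Over all tested probes the shares were 5.7% and 6.58%, so the lower count was near its share. The median log2 change of the list was 0.49. DNAJA4 read 362, 232 and 342 before and 3654, 3244 and 3116 after MFH, and was 11.6-fold higher (3.53 ± 0.12 in log2, SE; limma adjusted p = 1.1e-10). DNAJB4 rose 9.93-fold, or 3.31 ± 0.10 (SE) in log2 (limma adjusted p = 5.7e-11). The mitochondrial DNAJA3 fell by 0.34 on the log2 scale (limma adjusted p = 0.033), a call that was lost in 9 alternative fits.

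Of the exchange factors and other HSP70 partners, 5 of 14 were higher (35.7%) and 1 was lower (7.14%), against 5.7% and 6.58% of tested probes. The lower count was near its share, and the median log2 change was 0.088. BAG3, which links HSP70 to autophagy, read 3077, 2428 and 2810 on untreated and 16836, 14996 and 18496 on MFH arrays, and was 5.52-fold higher (2.47 ± 0.10 in log2, SE; limma adjusted p = 1.1e-09). CHORDC1, an HSP90 partner, rose by 1.59 ± 0.10 (SE; limma adjusted p = 2.4e-07). ST13 and STIP1, which pass clients between HSP70 and HSP90, rose by 1.27 and 0.95, and the mitochondrial exchange factor GRPEL2 by 0.34 (limma adjusted p = 2.1e-06, 3.8e-05 and 0.047); these 3 were chosen after their values were seen, and the GRPEL2 call was lost in 9 alternative fits. BAG4 fell by 0.59 on the log2 scale (limma adjusted p = 0.020), but its other probe gave -0.29 ± 0.13 (SE; limma adjusted p = 0.18), and the call was lost in 5 alternative fits.

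Among HSP90 proteins and their partners 4 of 10 were higher (40%) and 1 lower (10%), against 5.7% and 6.58% of tested probes. The median log2 change was 0.11. FKBP4, a co-chaperone of steroid receptors, rose by 1.72 ± 0.14 (SE; limma adjusted p = 1.6e-06). CACYBP rose by 1.64 ± 0.13 (SE; limma adjusted p = 1.4e-06) at its brightest probe, while its other probes gave 0.19 ± 0.10 and 0.13 ± 0.12 (SE; limma adjusted p = 0.29 and 0.60). FKBP5, a glucocorticoid-induced relative of FKBP4, fell by 0.55 on the log2 scale (limma adjusted p = 0.0025), and by 0.57 with median scaling, where the call was lost (limma adjusted p = 0.051). HSP90AB1 and the HSP90 co-chaperone PTGES3, also chosen after their values were seen, rose by 0.61 and 0.71 (limma adjusted p = 0.0012 and 0.00023).

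Small heat shock proteins were higher in 3 of 3 tested genes, while 6 of the 9 with a probe were too dim to be tested. The filter on mean level lets in dim genes that were brighter after MFH, so this count is not read as support. CRYAB, a chaperone that holds unfolded proteins without ATP, was above background on 1 of 3 untreated arrays. It read 118, 99.4 and 110 before and 2367, 1937 and 1395 after MFH, and was 23.3-fold higher (4.54 ± 0.15 in log2, SE; limma adjusted p = 5.7e-11). The fold moved with the processing, and was 41.5-fold with an offset of 16 and 14.7-fold in the authors' processed matrix. HSPB1, the abundant HSP27, rose by 1.22 ± 0.10 (SE; limma adjusted p = 2.7e-06). HSPB8, chosen after its values were seen, was not above background on any untreated array and was at least 1.81-fold higher after MFH. It passed the filter only through its MFH values, so no test is given for it.

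Chaperonins and the collagen chaperone SERPINH1, listed together, were higher in 6 of 11 genes (54.5%), against 5.7% of tested probes. The median log2 change was 0.78. SERPINH1 rose by 2.56 ± 0.17 (SE; limma adjusted p = 3.0e-07), and HSPE1, the partner of HSPD1, by 1.39 ± 0.16 (SE; limma adjusted p = 4.4e-05). Of the heat shock factors and their binders 1 of 4 was higher, HSBP1, which binds HSF1, by 0.54 ± 0.12 (SE; limma adjusted p = 0.0080), a call lost with median scaling (limma adjusted p = 0.065). HSF1 itself read 320 ± 48.2 (SD, n = 3) before and 264 ± 60.2 (SD, n = 3) after, with overlapping groups (log2 change -0.41 ± 0.13, SE; limma adjusted p = 0.056). HSF1 passed the threshold with the replicate block (limma adjusted p = 0.029), without untreated array 1 (limma adjusted p = 0.040) and without MFH array 3 (limma adjusted p = 0.015).

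**Figure D5:**
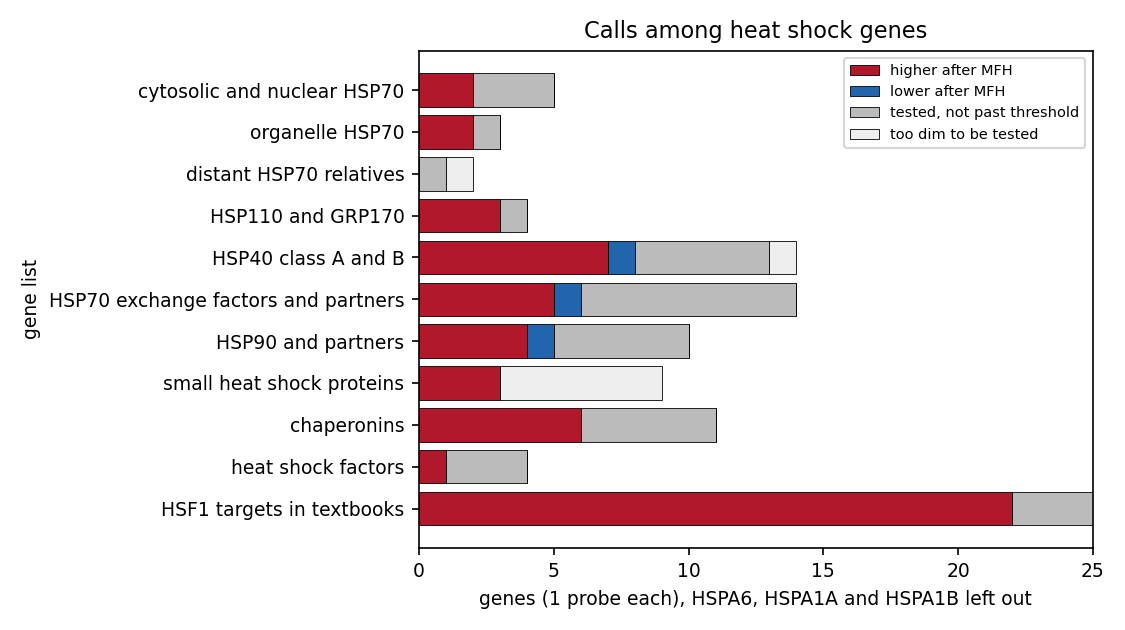
Number of genes in each heat shock list (horizontal axis, 1 probe per gene, HSPA6, HSPA1A and HSPA1B left out) that were higher, lower or not past an adjusted p of 0.05 in limma, or too dim to be tested. The HSF1 target list has 22 of 25 higher, HSPB8 among them, and its genes also stand in other lists.

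The probes whose profile over the 6 arrays was most like that of HSPA6 were, in order, those of HSPA7, the other HSPA6 probe, CRYAB, DNAJA4 and DNAJB4. Likeness was the root mean square difference of log2 values, each taken from the probe's untreated mean, over 17190 annotated tested probes. The members were left out of these candidates, so the HSPA1A and HSPA1B probes could not be listed for each other. It was 0.11 for HSPA7, 0.57 for the other HSPA6 probe and 0.91 for CRYAB, and then 1.63 for DNAJA4. The measure is not scaled for size of change. By size of change these probes ranked 2 to 6 among all tested probes, in the same order, so for HSPA6 the likeness repeats that ranking. HSPA1A was closest to CHORDC1 at 0.070, then to HLA-DRB4 at 0.095, MRPL18 at 0.099, CACYBP at 0.11 and a probe of MBNL2 at 0.15. HSPA1B was closest to MRPL18 at 0.090, CHORDC1 at 0.13, EFCAB7 at 0.14, another probe of MBNL2 at 0.16 and CACYBP at 0.16. These neighbours also had changes of much the same size as the members. Their log2 changes were 1.56 to 1.68 beside 1.58 for HSPA1A, and 1.59 to 1.78 beside 1.74 for HSPA1B. A likeness beyond size of change was not tested.

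On the 6 arrays 45.9% to 48.8% of probes were above background, the brightest probe read 19058 to 24583, and precision is limited by having 3 arrays per group. The labelled cell type was checked against marker lists. Of 6 epithelial markers, 5 were above background on all arrays, among them KRT8 and KRT7, and CDH1 was on none. Of 5 Müllerian and ovarian carcinoma markers, 4 were above background on all arrays, with PAX8 and WT1 the brightest, as were 4 of 4 mesenchymal markers, led by VIM and CDH2. KRT8 and PAX8 fell by 0.34 and 0.64 on the log2 scale (limma adjusted p = 0.038 and 0.00063), with the KRT8 call lost in 9 alternative fits. Of 5 leukocyte markers with a probe, only CD68 was above background on all arrays, with CD3E on none. Of 4 endothelial markers only CDH5 was, with VWF on none, and of 5 fibroblast markers only COL1A1 was, with PDGFRB on none. COL1A1 rose by 0.35 (limma adjusted p = 0.036), a call lost in 8 alternative fits. The summed intensity of the leukocyte list was 1859 to 2359 on untreated and 2005 to 3013 on MFH arrays. The endothelial list summed to 482 to 585 and 515 to 724, and the fibroblast list to 492 to 571 and 542 to 659. The part of other cells in the HSP70 values was not tested.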

How the data were processed

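Total RNA of 3 untreated and 3 MFH-treated HeyA8 samples was measured on Illumina HumanHT-12 V4 bead arrays. The authors deposited non-normalised bead intensity per probe, exported with BeadStudio per the submitters' processing notes, and a matrix of processed log2 values (normalization method: not given in the sources used here), which served as an alternative. Intensities were corrected with normexp (offset 50), taken to log2, quantile normalised, and the probes whose mean level exceeded the overall median were tested with limma 3.58.1 in R 4.3.3 (lmFit, eBayes, Benjamini-Hochberg adjustment). The offset lowers the folds of dim probes, and quantile normalization bounds the brightest. The SE of a member or of its other probe is that of the group means, and all others are limma's. The code was tested on simulated data.

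An array's background was the mode of its intensities, and its limit was the mode plus 2 SD of the values below it, set after the data were seen; a probe past that limit was called above background. Each gene was read from the probe with the highest mean normalised level. An "at least" fold takes, for untreated arrays, the higher of the probe's value and the lowest signal above background. Named were the members, all HSP70 relatives, the 2 largest rises and the largest fall per other list among called genes whose groups did not overlap, the 5 most alike probes and up to 2 markers per list. Members and lists were chosen with earlier results of these data known. AHSA1, HSPB11 and HSF2 were listed but not analysed here, having no probe under those symbols in the annotation used. Alternatives changed the offset, background correction, normalization, filter, replicate block, array set, prior, fold requirement, probe rule and source of values. Same-numbered arrays had correlations of their deviations of 0.0039, 0.060 and -0.036, so they were not treated as pairs.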

Additional observations from a re-analysis of the deposited data

How the results depend on the processing

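No gene or probe whose change was recomputed and called turned direction under the alternatives run for it. The log2 change of HSPA6 was 5.50 with the authors' processed matrix and 6.07 on intensities less the background mode, and leaving out 1 array gave 5.68 to 5.97. Leaving out 1 array gave 1.502 to 1.67 for HSPA1A and 1.67 to 1.86 for HSPA1B. Median scaling called 1030 probes, 549 higher and 481 lower. Requiring a 2-fold change called 226 probes, 186 higher and 40 lower. Leaving out 1 array called 1995 to 2589 probes, 974 to 1191 higher and 1021 to 1398 lower. Of the heat shock genes, leaving out 1 array called 36 to 39 higher and 1 to 3 lower, and of the HSP70 relatives 6 to 7 higher and 0 lower. The lower heat shock genes numbered 1 without untreated array 2 or 3. They numbered 1 with an offset of 16 and 0 with median scaling. Median scaling also ended the calls of FKBP5 and HSBP1 (limma adjusted p = 0.051 and 0.065), at log2 changes of -0.57 and 0.56. The HSPA13 call was lost with an offset of 16, with median scaling and without any 1 of untreated arrays 1, 2 and 3 or MFH array 3. BAG4 was lost in the first 2 of these settings and without untreated array 2 or 3 or MFH array 3. DNAJA3 was lost with an offset of 16, cyclic loess, median scaling, the replicate block (limma adjusted p = 0.051) and without any 1 array other than MFH array 3. GRPEL2, KRT8 and COL1A1 lost their calls in 8 or 9 settings each, median scaling and leaving out untreated array 1, 2 or 3 among them. The cause was not tested. With the replicate block 2870 probes were called, 1366 higher and 1504 lower, with 37 and 3 heat shock genes, and the deviations of same-numbered arrays did not pair them. Signal over background limits the small heat shock proteins, and no saturation flag was available for the brightest probes.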
